A study of Danio rerio with 4 samples.

Results

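Energy metabolism genes of zebrafish primordial germ cells are described here, from the enzymes that break down glucose to the respiratory chain and the ribosome of the mitochondrion. They were chosen by gene symbol alone, as all rows of the authors' gene table whose names start with the roots of glycolytic enzymes, pyruvate and lactate enzymes, citric acid cycle enzymes, respiratory chain and ATP synthase subunits, mitochondrial ribosomal proteins or mitochondrial import proteins. This gave 17 of 2477 rows. The embryos were of the AB strain and were injected with a morpholino, a synthetic antisense oligonucleotide, either against dead end (2 libraries) or as a control (2 libraries). Dead end is an RNA-binding protein that vertebrate germ cells need to keep their fate. Germ cells were sorted at 13 hours post fertilization on a germline EGFP signal, and their polyadenylated RNA was sequenced. Both groups therefore share strain, stage, injection, the fluorescent germline label and the sort. Separate clutches for the libraries are not stated in the labels, nor is how the morpholino blocks its RNA, so the spread behind the calls may be technical.

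Glycolysis splits glucose into pyruvate in the cytosol and needs no oxygen. Pyruvate dehydrogenase then feeds carbon into the citric acid cycle of the mitochondrion, whose electrons pass through the respiratory chain and drive the ATP synthase. The mitochondrial ribosome translates the few respiratory subunits that mitochondrial DNA encodes. The egg supplies the embryo with its mitochondria, and germ plasm, the maternal material that specifies zebrafish germ cells, lies close to them.

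The table held 1 FPKM value per gene and group (fragments per length of transcript and per size of the library), so each value combines the 2 libraries of a group. No value per library, no standard deviation and no depth could be given, and changes are called by the authors' q under 0.05. All 2477 rows had q under that limit, so an energy gene in the table was a called gene, and other energy genes were not analysed here. As a gauge of error, the standard error of each log2 ratio was taken as the ratio divided by the authors' test statistic. This assumes that the statistic is a log ratio over its standard error, which is not stated in the sources used here. For mdh1aa, the statistic of -1.90 came with an authors' p-value of 0.00645, smaller than a normal score of that size gives. The implied errors may therefore differ from the spread behind the calls. In the deposited table, these implied errors ran from 0.45 to 1.20 on the log2 scale for the energy genes.

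Energy genes were mostly lower in dead end morphants: 12 of 17 were lower (70.6%) and 5 were higher (29.4%) in the authors' deposited table. Of all 2477 rows of that table, 35.0% were lower and 65.0% higher. At q under 0.01 there were 5 lower and 1 higher energy genes, beside 29.9% lower and 70.1% higher rows of the authors' deposited table. The lower ones at that limit included pfkpa and sdhda, both listed at 0 in dead end morphants and low in controls. The classes did not share a direction. All 5 glycolytic enzymes in the table were lower with dead end morpholino, as were the pyruvate dehydrogenase subunit and the malate dehydrogenase. In plain ratios the respiratory chain had 3 higher and 2 lower genes, the ATP synthase 1 higher gene, and the mitochondrial ribosome 1 higher and 2 lower genes. The remaining lower gene, pgam5, bears the name of a glycolytic mutase but encodes a mitochondrial protein phosphatase.

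The median log2 ratio of all rows of the table was 1.23, and centring on it changes some directions: cox4i1, cox6b2, ndufs5 and atp5b, higher in the plain ratio, come out at -0.17 to -0.02. With that centring only mrpl57 of the energy genes stayed above 0. The lower genes stayed lower, as they must when a median above 0 is subtracted. The table holds called genes alone, so its median is not that of all expressed genes. Ratios below are as the authors' table gives them, with no centring.

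**Figure D1:**
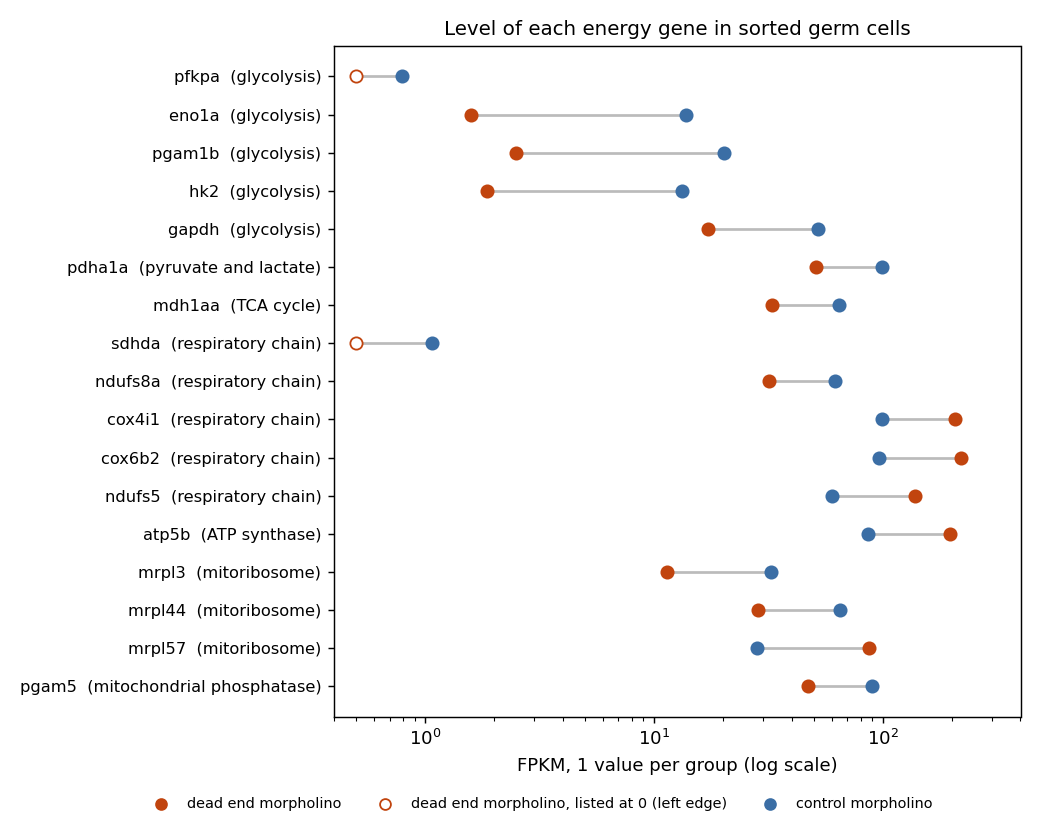
FPKM (log axis) of each of the 17 energy genes with the dead end morpholino (red) and the control morpholino (blue), 1 value per group, ordered by class; open circles mark genes listed at 0, drawn at the left edge. The glycolytic enzymes lie to the left of their control values, while cox4i1, cox6b2, ndufs5, atp5b and mrpl57 lie to the right, a direction that for the first 4 of these flips when ratios are centred on the median of the table.

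Among energy genes listed above 0 in both groups, the largest falls in plain ratios were those of glycolytic enzymes. The table holds called rows only, so a gene with a large error could enter it only with a large ratio. The implied errors of eno1a, pgam1b and hk2 were 1.20, 0.90 and 0.91 on the log2 scale. Those of the other energy genes with a ratio ran from 0.45 to 0.70. In the authors' deposited table, transcripts of enolase, mutase and hexokinase fell 7.16-fold to 8.71-fold, and those of the glyceraldehyde phosphate dehydrogenase fell 3.02-fold. Hexokinase 2 (hk2, ENSDARG00000101482, chromosome 5, 13370083 to 13503972) traps glucose in the cell by phosphorylation. It had 1.86 FPKM in dead end morphants, against 13.3 FPKM in controls, a fall of 7.16-fold (q = 0.0112) in the authors' deposited table. The platelet-type phosphofructokinase gene pfkpa (ENSDARG00000028000, chromosome 24, 3931993 to 3972265) encodes an enzyme of the committed step. The authors' deposited table listed it at 0 in dead end morphants and at 0.796 FPKM in controls (q = 0.00107), so no fold is given, and its control level was the lowest of all the energy genes. It had no test statistic. The same q is given for several more abundant genes named below, so this q does not rank the calls.

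The gene gapdh (ENSDARG00000043457, chromosome 16, 17284686 to 17292143) encodes the dehydrogenase that makes the first NADH of the pathway. This most abundant glycolytic gene of the table had 17.2 FPKM in dead end morphants, against 51.9 FPKM in controls (q = 0.00381, the authors' deposited table). This gene often serves as a loading control, and here it was among the called genes. The phosphoglycerate mutase gene pgam1b (ENSDARG00000014068, chromosome 1, 54030015 to 54041212) had 2.49 FPKM in dead end morphants and 20.3 FPKM in controls, a fall of 8.16-fold (q = 0.00637) in the authors' deposited table. The enolase gene eno1a (ENSDARG00000022456, chromosome 23, 22729925 to 22751447) had 1.59 FPKM in dead end morphants and 13.9 FPKM in controls in the authors' deposited table. Its fall of 8.71-fold (q = 0.00811) was the largest plain ratio among the energy genes listed above 0 in both groups, and its implied standard error of 1.20 on the log2 scale was the largest as well. On log2 of (FPKM + 1), the fall of pgam1b (-2.61) exceeded that of eno1a (-2.52).

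Summed over the 5 glycolytic genes, the level was 23.1 FPKM in dead end morphants and 100.2 FPKM in controls, from the authors' deposited table. Over all 17 energy genes the sum was instead higher in dead end morphants, 1077 FPKM against 883 FPKM in controls. Over all rows of the authors' deposited table it was 236837 FPKM in dead end morphants and 117114 FPKM in controls. Among the 712 lower genes of that table with both values above 0, ordered from the largest fall, eno1a stood at place 34, pgam1b at 38, hk2 at 62 and gapdh at 371. The median fall of those 712 genes was 3.08-fold, so the first 3 lay well above it and gapdh close to it. The 4 glycolytic folds, 3.02 to 8.71, did not overlap with those of 6 other lower energy genes, 1.89 to 2.85. These are the genes with both values above 0 in the authors' deposited table, so pfkpa and sdhda are left out. On log2 of (FPKM + 1), with both included, pfkpa (-0.84) fell less than pgam5 (-0.91), so the ranges overlapped. The implied errors of gapdh (log2 ratio -1.60, error 0.59) and of mrpl3 (log2 ratio -1.51, error 0.67) do overlap, and the difference between the classes was not tested. How far the limit to called rows shaped these ranges was not tested either.

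**Figure D2:**
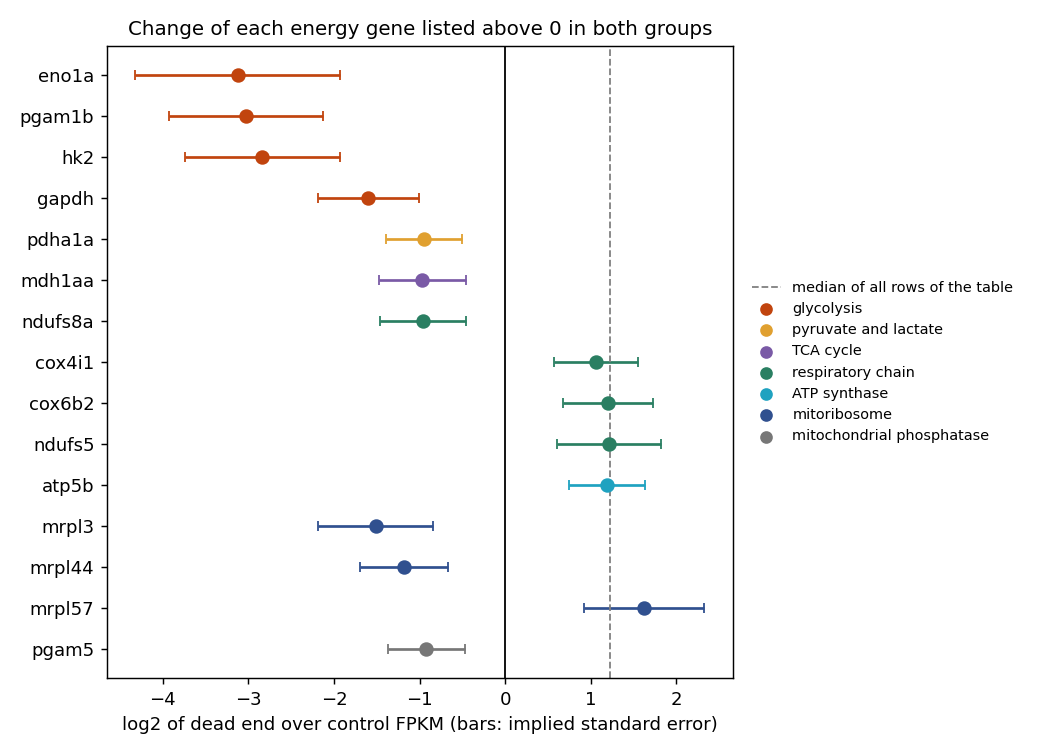
Log2 ratio of FPKM, dead end morpholino over control morpholino, for the 15 energy genes listed above 0 in both groups, coloured by class; bars are the implied standard error and the dashed line is the median of all rows of the table, 1.23. The glycolytic genes run from -3.12 to -1.60, and the higher genes of the respiratory chain and ATP synthase sit at 1.06 to 1.21, above 0 but just below the dashed line.

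The dehydrogenases of pyruvate and of malate had 1 gene each in the table, both lower. The gene pdha1a (ENSDARG00000012387, chromosome 5, 23527513 to 23540924) encodes the catalytic alpha subunit of pyruvate dehydrogenase. It had 51.3 FPKM in dead end morphants and 98.8 FPKM in controls, a fall of 1.93-fold (q = 0.0289) in the authors' deposited table. Among the lower energy genes, pdha1a had the highest level in both groups. The gene mdh1aa (ENSDARG00000017772, chromosome 1, 50325108 to 50347087) encodes the cytosolic malate dehydrogenase, a part of the malate-aspartate shuttle that carries NADH electrons into the mitochondrion, and is counted with the citric acid cycle by its symbol alone. It had 33.0 FPKM in dead end morphants and 64.6 FPKM in controls, a fall of 1.96-fold (q = 0.0451) in the authors' deposited table. Genes of citrate synthase, aconitase, isocitrate dehydrogenase and lactate dehydrogenase were not analysed here.

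Subunits of the respiratory chain went both ways. Complex I, the NADH dehydrogenase, had 1 gene in each direction. The gene ndufs8a (ENSDARG00000051986, chromosome 1, 44113018 to 44121768) encodes an iron-sulphur subunit of its conserved core. It had 31.7 FPKM in dead end morphants and 61.7 FPKM in controls, a fall of 1.94-fold (q = 0.0436) in the authors' deposited table. The gene ndufs5 (ENSDARG00000006290, chromosome 19, 35770075 to 35774436) encodes an accessory subunit. It had 139 FPKM in dead end morphants and 59.9 FPKM in controls, a rise of 2.32-fold (q = 0.0459) in the authors' deposited table, which turns to -0.02 on the log2 scale when centred on the median of the table. The control levels of the 2 genes were thus nearly equal, and the dead end levels lay on opposite sides of them. Complex II, succinate dehydrogenase, was represented by its membrane anchor gene sdhda (ENSDARG00000055712, chromosome 5, 29481087 to 29487924), which the authors' deposited table listed at 0 in dead end morphants and at 1.08 FPKM in controls (q = 0.00437).

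Complex IV, cytochrome c oxidase, had 2 genes in the table, both higher unless centred on the median of the table. The gene cox4i1 (ENSDARG00000032970, chromosome 18, 30529584 to 30531987) encodes a regulatory subunit of the enzyme. It had 208 FPKM in dead end morphants and 99.6 FPKM in controls, a rise of 2.09-fold (q = 0.0187) in the authors' deposited table. The gene cox6b2 (ENSDARG00000037860, chromosome 16, 12614026 to 12621691), whose mammalian counterpart encodes a testis form of the subunit, had 221 FPKM in dead end morphants and 95.9 FPKM in controls (2.30-fold, q = 0.0221) in the authors' deposited table. The catalytic beta subunit of the ATP synthase, atp5b (ENSDARG00000070083, chromosome 11, 13150238 to 13155400), had 196 FPKM in dead end morphants and 85.9 FPKM in controls (2.28-fold, q = 0.00679) in the authors' deposited table. The ATP synthase gene too turns, to -0.04, when centred on the median of the table. These 3 genes reached the highest dead end levels of all the energy genes, 196 to 221 FPKM in the authors' deposited table. Their rises were smaller than the median rise of 2.96-fold over the 1533 higher genes with both values above 0 in the authors' deposited table. Genes of complex III, the ubiquinol-cytochrome c reductase, were not analysed here.

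Proteins of the mitochondrial ribosome split by gene as well, all 3 in the table being parts of its large subunit. The gene mrpl3 (ENSDARG00000103318, chromosome 19, 19620897 to 19644335) had 11.4 FPKM in dead end morphants and 32.4 FPKM in controls, a fall of 2.85-fold (q = 0.0273) in the authors' deposited table. The gene mrpl44 (ENSDARG00000094277, chromosome 15, 35356576 to 35366512) had 28.6 FPKM in dead end morphants and 65.0 FPKM in controls, a fall of 2.27-fold (q = 0.0142) in the authors' deposited table. In contrast, mrpl57 (ENSDARG00000007285, chromosome 17, 26590118 to 26592471) had 86.9 FPKM in dead end morphants and 28.2 FPKM in controls, a rise of 3.08-fold (q = 0.0248) in the authors' deposited table. This was the energy gene with the largest rise, and it stayed higher, by 0.39 on the log2 scale, when centred on the median of the table.

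The gene pgam5 (ENSDARG00000035608, chromosome 5, 18421574 to 18432443), the mitochondrial phosphatase, had 47.2 FPKM in dead end morphants and 89.4 FPKM in controls in the authors' deposited table. Its fall of 1.89-fold (q = 0.0326) was the smallest among the energy genes and close to the smallest change of any row of the authors' deposited table, 1.78-fold. The name rule also covers protein import genes of the timm and tomm families, of which the table used here held 0 of 26.

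**Figure D3:**
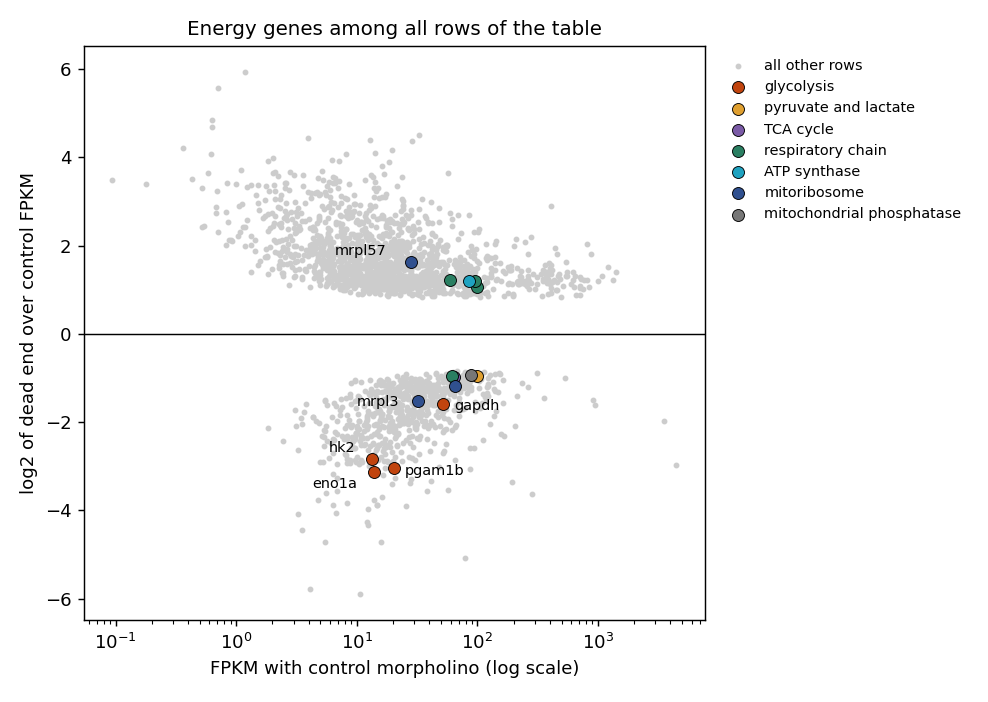
Log2 ratio of FPKM, dead end morpholino over control morpholino, against control FPKM (log axis) for all rows listed above 0 in both groups (grey) and for the 15 energy genes (coloured by class; mdh1aa lies beneath ndufs8a). Both axes hold the control value; eno1a, pgam1b and hk2 lie far down among the lower genes, while most mitochondrial genes of either direction lie near the inner edge, close to the smallest called change.

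Set against the genome, the table used here held a small part of each class. By the same name roots, RefSeq annotates 285 protein-coding genes in zebrafish (assembly GRCz12tu), so the table held 5.96% of them. Of all 22184 named protein-coding genes of RefSeq, 2229 were matched to the table. Counted by name root, it held 5 of 36 glycolytic genes, 5 of 97 respiratory chain genes and 1 of 20 ATP synthase genes. It held 3 of 75 mitochondrial ribosomal protein genes and 0 of 26 import genes. These totals are matches of names, so they can take in genes that are not themselves enzymes or subunits of the class, such as those of the pfkfb root. Genes outside these counts were not analysed here, so the shares describe only the table used here. Of the energy genes, 11 have a close paralog in RefSeq, such as hk1, gapdhs, pgam1a, eno1b, pdha1b, mdh1ab, ndufs8b and sdhdb. The 12 paralogs looked up were not analysed here, and how reads common to such copies were assigned is not stated. No energy gene overlapped the position of another row.

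The lists used here hold glucose transporters, glycogen enzymes and other neighbouring pathways, with members of the name rule taken out. They were chosen with earlier results of these data known. Of 21 genes of glucose transport and glycogen, 4 were in the authors' deposited table and all 4 were lower, beside 35.0% of all rows of that table. For comparison, 2229 of all 22184 named protein-coding genes of RefSeq were matched to it. With so few genes, in a list chosen in this way, these counts are a description only. Glycogen synthase gys1 had 1.00 FPKM in dead end morphants and 14.8 FPKM in controls (14.7-fold, q = 0.00381) in the authors' deposited table. The glycogen debranching enzyme gene agla had 2.18 FPKM in dead end morphants and 11.2 FPKM in controls (5.14-fold) in the authors' deposited table. The phosphoglucomutase gene pgm1, which links glycogen to glycolysis, had 4.12 FPKM in dead end morphants and 18.7 FPKM in controls (4.56-fold) there. The sugar transporter gene slc2a12 had 1.22 FPKM in dead end morphants and 8.06 FPKM in controls in the authors' deposited table (q = 0.0218).

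The pentose phosphate pathway, which branches off glycolysis to make NADPH and ribose, had 2 of 9 genes in the authors' deposited table, both lower, against the same 35.0% of all rows; with so few genes these counts are a description only. The dehydrogenase gene pgd had 8.89 FPKM in dead end morphants and 35.0 FPKM in controls, and the transketolase gene tktb had 57.2 FPKM in dead end morphants and 139.8 FPKM in controls (both q = 0.00107), in the authors' deposited table. The pyruvate carboxylase gene pcxa, which refills the citric acid cycle, had 9.75 FPKM in dead end morphants and 28.8 FPKM in controls in the authors' deposited table (q = 0.0184).

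Transporters of lactate and pyruvate moved in opposite directions. The monocarboxylate transporter gene slc16a3, known in mammals for lactate export from glycolytic cells, had 23.1 FPKM in dead end morphants and 285 FPKM in controls, a fall of 12.4-fold (q = 0.00107) in the authors' deposited table. Its relative slc16a1b had 114.9 FPKM in dead end morphants and 38.9 FPKM in controls, a rise of 2.95-fold (q = 0.00107) in the authors' deposited table, and stayed higher when centred on the median of the table.

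Enzyme complexes that carry out the oxidative steps were split within themselves. In the pyruvate dehydrogenase complex, the dihydrolipoamide dehydrogenase gene dldh fell together with pdha1a, to 12.6 FPKM in dead end morphants against 32.1 FPKM in controls (q = 0.0150), in the authors' deposited table. The acetyltransferase gene dlat of the same complex had 31.7 FPKM in dead end morphants and 15.7 FPKM in controls (q = 0.0308) in the authors' deposited table, a rise that turns to -0.22 on the log2 scale with centring on the median of the table. The succinyltransferase gene dlst of the oxoglutarate dehydrogenase complex, which also uses the dldh product, had 25.5 FPKM in dead end morphants and 9.22 FPKM in controls (q = 0.0187) in the authors' deposited table, and stayed above the median of the table. Both genes of ubiquinone synthesis in the table, pdss1 (8.78 FPKM in dead end morphants, 28.9 FPKM in controls) and coq9 (11.7 FPKM in dead end morphants, 36.8 FPKM in controls), were lower in the authors' deposited table. They were the 2 genes called out of 46 for respiratory assembly and cofactors, of which 45 were in RefSeq. Beside them, 35.0% of all rows of the table were lower, and 2229 of all 22184 named RefSeq genes were matched to it. With 2 genes this count is a description only.

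**Figure D4:**
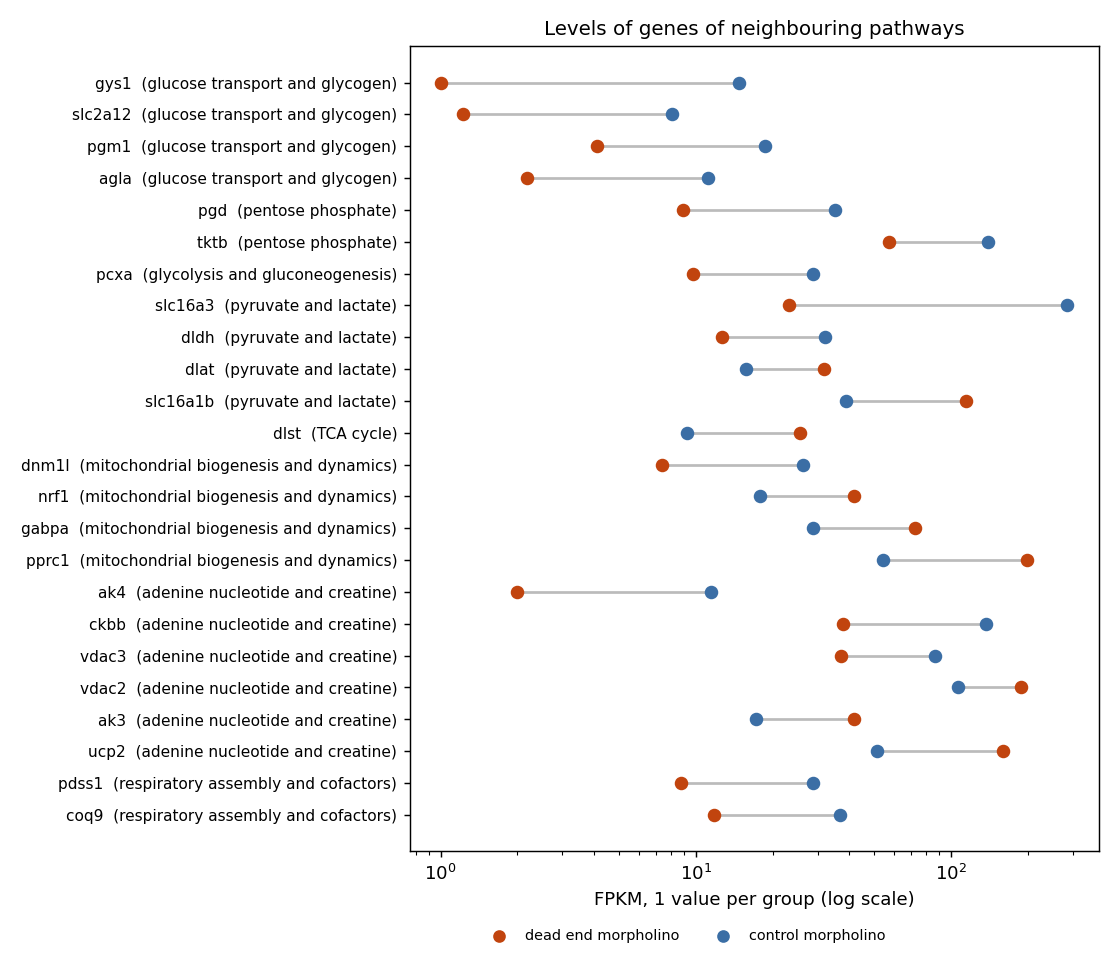
FPKM (log axis) with the dead end morpholino (red) and the control morpholino (blue), 1 value per group, for genes of neighbouring pathways in the table. Genes of sugar transport, glycogen and the pentose phosphate pathway lie left of their control values, and slc16a3 shows the widest gap among the abundant ones, 23.1 against 285 FPKM.

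Of 26 genes of mitochondrial biogenesis and dynamics, 4 were in the authors' deposited table, 3 of them higher in the plain ratio and 1 lower. With 65.0% of all rows of that table higher, the count of higher genes does not set the list apart. Of all 22184 named protein-coding genes of RefSeq, 2229 were matched to that table. With so few genes the counts of this list are a description only. The coactivator gene pprc1 had 199 FPKM in dead end morphants and 54.4 FPKM in controls (3.67-fold, q = 0.00107), in the authors' deposited table. The genes of the nuclear respiratory factors, nrf1 (41.8 FPKM in dead end morphants, 17.9 FPKM in controls) and gabpa (72.4 FPKM in dead end morphants, 28.8 FPKM in controls), were also higher in the authors' deposited table, although nrf1 turns to -0.01 on the log2 scale when centred on the median of the table. Both factors are known in mammals to bind promoters of nuclear genes for respiratory subunits. The fission gene dnm1l was the lower one, with 7.37 FPKM in dead end morphants and 26.4 FPKM in controls, in the authors' deposited table (q = 0.00107).

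Genes that handle ATP and its exchange were mixed, 3 higher and 3 lower of the 6 called among 19 in the authors' deposited table. Of all rows of that table, 65.0% were higher and 35.0% lower. Among all 22184 named protein-coding genes of RefSeq, 2229 were matched to it. With so few genes the counts of this list are a description only. Creatine kinase ckbb had 37.7 FPKM in dead end morphants and 137.6 FPKM in controls (q = 0.00107) in the authors' deposited table. The adenylate kinase genes differed, as ak4 had 1.99 FPKM in dead end morphants and 11.5 FPKM in controls, while ak3 had 41.7 FPKM in dead end morphants and 17.2 FPKM in controls, in the authors' deposited table. The rise of ak3 stays above 0, by 0.05 on the log2 scale, when centred on the median of the table. The outer membrane channels vdac3 (37.1 FPKM in dead end morphants, 86.5 FPKM in controls) and vdac2 (189 FPKM in dead end morphants, 106.2 FPKM in controls) had opposite directions in the authors' deposited table, and vdac2 turns to -0.40 with that centring. The uncoupling protein gene ucp2 had 160.1 FPKM in dead end morphants and 51.5 FPKM in controls (q = 0.00107) in the authors' deposited table, and it stayed above the median of the table.

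The remaining lists had 1 or 2 called genes each. For comparison, 2229 of all 22184 named protein-coding genes of RefSeq were matched to the authors' deposited table. With lists this small, these counts are a description only. For mitochondrial translation, 1 of 32 was called, the tRNA synthetase gene pars2 (8.73 FPKM in dead end morphants, 22.9 FPKM in controls). For mitochondrial redox enzymes and proteases, 2 of 29 were called, clpxb (2.69 FPKM in dead end morphants, 10.5 FPKM in controls) and spg7 (5.99 FPKM in dead end morphants, 19.0 FPKM in controls). The genes pars2, clpxb and spg7 were all lower in the authors' deposited table, beside 35.0% of all its rows. Of 23 genes of hypoxia, 1 was called in the authors' deposited table, the hypoxia-inducible factor gene hif1ab, with 103.7 FPKM in dead end morphants and 54.2 FPKM in controls (q = 0.0251), which turns to -0.29 on the log2 scale with centring on the median of the table.

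**Figure D5:**
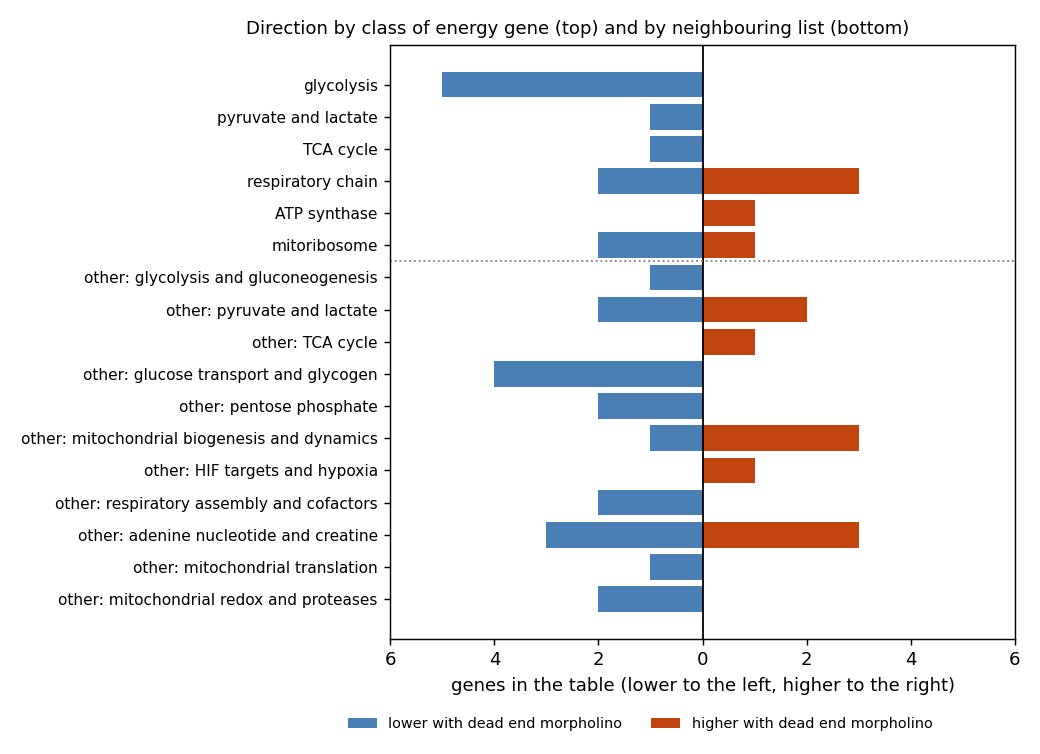
Number of genes lower (left) and higher (right) with the dead end morpholino, in the plain ratio of the authors' table, for the classes of energy genes (above the dotted line) and for neighbouring lists without them (below). Glycolysis, glucose transport and glycogen, and the pentose phosphate pathway hold lower genes only among those in the table, 5, 4 and 2. So do respiratory assembly and cofactors and mitochondrial redox and proteases, with 2 each. Pyruvate and lactate members, TCA cycle members, mitochondrial translation and the other glycolysis and gluconeogenesis list hold 1 lower gene each. Of all rows of the table, 35.0% were lower. Centring on the median of the table turns 4 of the higher energy genes.

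Markers of germ cells and of other tissues moved along with these changes. For comparison with the counts below, 2229 of all 22184 named protein-coding genes of RefSeq were matched to the authors' deposited table. Of 10 germ cell markers, 8 were in that table and all were lower, beside 35.0% of all its rows. They summed to 2275 FPKM in dead end morphants and 10308 FPKM in controls (range of log2 ratios among them from -3.56 to -1.12). Markers listed for somite and muscle summed to 1646 FPKM in dead end morphants and 84.1 FPKM in controls (4 of 6 in the authors' deposited table). The largest parts of that dead end sum were msgn1 (751 FPKM) and tbx6 (597 FPKM), while the listed actc1b and myog were not among the 4. Neural markers summed to 646 FPKM in dead end morphants and 92.0 FPKM in controls (4 of 5) in the authors' deposited table. Epidermal markers summed to 436 FPKM in dead end morphants and 211 FPKM in controls (3 of 4), yolk syncytial markers to 1274 FPKM in dead end morphants and 491 FPKM in controls (2 of 4), and blood and endothelial markers to 52.2 FPKM in dead end morphants and 6.71 FPKM in controls (3 of 4), in the authors' deposited table. None of these markers was listed at 0 in either group. All of the somatic ones in the table were higher in dead end morphants in the plain ratio, beside 65.0% of all its rows. The epidermal krt8, with 358 FPKM in dead end morphants, had the smallest log2 ratio among them, 0.86. That lies below the median of the table, 1.23, so centring turns it. The part of these shifts in the levels of the energy genes was not tested. In pooled RNA of sorted cells, fewer cells of a type and less RNA per cell cannot be told apart.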

How the data were processed

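RNA of sorted germ cells was measured in 4 libraries, 2 with the dead end morpholino and 2 with the control, grouped by the labelled agent. Reads were handled with Cuffdiff, Cufflinks 2.2.1, STAR 2.5.2b and cutadapt 1.10, per the submitters' processing notes, which list the builds Zv9 and GRCz10 but not what each was for. Positions were taken as GRCz10, since position 74754136 on chromosome 4 lies past that chromosome's end in Zv9. The authors deposited FPKM per group (1 value each), their log2 ratio (it matched the FPKM within 1.34e-05), a test statistic, here a score, and p-value and q-value, per the file headers. Whether the quantification used strand is not stated.

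Rows were chosen by a pattern on the symbol and sorted into classes with Python 3.11.15 and pandas 2.3.3. The row selection was tested on simulated data. Neighbouring lists were matched by symbol or a single RefSeq synonym. The members, classes and lists were chosen with earlier results of these data known. Named genes were all members and up to 4 genes per neighbouring list and direction, which took in every called gene of the lists except 1 that is not reported here. With 1 value per group no test was run here, depth is unknown, and no replicate error can be given. The authors' term tables (PANTHER release 20160715) gave a fold enrichment ratio and a corrected p-value, per the file headers. Alternatives were a stricter q, minimum FPKM, pseudocounts of 1 and 0.1, another symbol source, centring, and a limit of 2 on the statistic.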

Additional observations from a re-analysis of the deposited data

How the results depend on the processing

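No paired analysis was possible because the table gives 1 value per group; for the same reason leaving out a replicate, edgeR and DESeq2 could not be run. At q under 0.01 the counts were 5 lower and 1 higher; glycolysis kept 4 lower genes, with a median log2 ratio of -3.03, and atp5b was the 1 higher. There the respiratory chain had 1 lower and 0 higher, the mitochondrial ribosome 0 lower and 0 higher, and pyruvate dehydrogenase and malate dehydrogenase 0 each. That lower respiratory chain gene was sdhda, listed at 0 in dead end morphants and at 1.08 FPKM in controls. The lower glycolytic genes included pfkpa, listed at 0 in dead end morphants and at 0.796 FPKM in controls. A minimum of 10 FPKM left 1 lower respiratory chain gene (ndufs8a). With an absolute statistic of at least 2, chosen after seeing the data, 13 of 15 genes with a statistic remained, as mdh1aa and ndufs8a dropped out. The genes pfkpa and sdhda, listed at 0, have no statistic and were left out for that reason. Without ndufs8a and sdhda, 0 lower respiratory chain genes were left, with a respiratory chain median of 1.20. Without mdh1aa, a cytosolic enzyme, 0 genes were left under citric acid cycle symbols, where it was the only one. A minimum of 1 FPKM and the reference symbols kept each class count within 1.5 times its value. Leaving out pgam5, which belongs to none of these classes, could not change their counts. On log2 of (FPKM + 1), with the genes listed at 0 included, class medians were -2.32 for glycolysis (-2.93 in plain ratios), -0.93 for pyruvate dehydrogenase, -0.95 for malate dehydrogenase, 1.05 for the respiratory chain (1.13 in plain ratios), 1.18 for the ATP synthase and -1.16 for the mitochondrial ribosome. Both pseudocounts kept the direction of all 15 genes, but adding the same amount to both groups cannot change a direction. This was therefore no check of it. Centred on the median of the table, 4 directions reversed: cox4i1 (-0.169), cox6b2 (-0.0276), ndufs5 (-0.0176) and atp5b (-0.0401). The depth is unknown, so its limit on genes listed near 0 cannot be given.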

Other observations

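Genes of mitochondrial carriers, the slc25 family of the inner membrane, were looked up after their values were seen. Of 60 RefSeq genes of this name, 5 were in the authors' deposited table, 4 lower and 1 higher. For comparison, 2229 of all 22184 named protein-coding genes of RefSeq were matched to that table, and 35.0% of its rows were lower. With so few genes, in a list chosen after its values were seen, the carrier counts are a description only. The oxoglutarate and malate carrier gene slc25a11, which works in the same shuttle as mdh1aa, had 22.5 FPKM in dead end morphants and 53.9 FPKM in controls (q = 0.0427), and the carnitine carrier gene slc25a20 had 16.3 FPKM in dead end morphants and 41.8 FPKM in controls (q = 0.0142), in the authors' deposited table. The paralogs slc25a36a (7.69 FPKM in dead end morphants, 19.2 FPKM in controls) and slc25a36b (13.5 FPKM in dead end morphants, 5.63 FPKM in controls), pyrimidine nucleotide carriers in mammals, had opposite directions in the authors' deposited table. The rise of slc25a36b stays above 0, by 0.03 on the log2 scale, when centred on the median of the table. The authors' deposited table listed slc25a38a at 0 in dead end morphants and at 1.47 FPKM in controls.

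In the authors' deposited term tables, 374 terms were given for higher genes and 21 for lower genes. By a search of their names, 0 terms in either table spoke of mitochondria, glycolysis, glucose, pyruvate, respiration or energy. The general term metabolic process stood in both, enriched 1.57-fold among lower genes (corrected p = 6.29e-08) and 1.55-fold among higher genes (corrected p = 6.89e-20) in the authors' deposited term tables.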
